A study of Mus musculus with 15 samples.

Results

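The cytostatic cell cycle regulators of the TGF-beta pathway were examined in mouse endometrial epithelial organoids. They are 10 of the 16729 genes in the expression matrix, chosen by symbol: the cyclin-dependent kinase (CDK) inhibitors Cdkn1a, Cdkn1b, Cdkn1c, Cdkn2a, Cdkn2b and Cdkn2c, the transcription factors Myc and E2f1, and the D-type cyclins Ccnd1 and Ccnd2. Each symbol matched 1 gene identifier. Organoids are cultures of isolated uterine epithelium grown in Matrigel, and RNA-seq was compared between 4 groups of them. Control + vehicle organoids (n = 3) came from Smad2flox/flox; Smad3flox/flox mice and received the solvent DMSO. Control + A83-01 organoids (n = 4) had the same genotype and were grown with A83-01, an inhibitor of the type 1 receptor kinases ALK4, ALK5 and ALK7. Smad2/3 cKO organoids (n = 4) came from mice with the same floxed alleles and Ltf-cre as 1 copy (Ltfcre/+), and received DMSO. Smad2/3 cKO + A83-01 organoids (n = 4) combined the cKO genotype with the inhibitor. Both floxed alleles are thus present in all groups, and Cre is expressed from the lactoferrin promoter, which is active in the uterine epithelium, so that organoids can hold cells that have not recombined. Per the study's methods, estradiol was given at weaning to induce Cre, and the mice were of a mixed C57BL/6J and 129S5/SvEvBrd background. Organoids within a group came from different mice, whose epithelium was separated by trypsin and mechanical dissection. The study reports that its experimental mice were females, and adults unless it states otherwise. The ages of the mice are not given in the labels, and some sample numbers recur between groups.

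TGF-beta and activin ligands bind type 1 and type 2 receptor kinases, and the type 1 receptors phosphorylate SMAD2 and SMAD3, which enter the nucleus with SMAD4. In many epithelia this arm halts cells in the G1 phase by raising CDK inhibitors such as p15INK4b and p21 and by repressing MYC. D-type cyclins activate CDK4 and CDK6, which phosphorylate the retinoblastoma protein and release E2F factors that drive the S-phase genes. The INK4 proteins, encoded by Cdkn2a, Cdkn2b, Cdkn2c and Cdkn2d, bind CDK4 and CDK6, whereas the CIP/KIP proteins, encoded by Cdkn1a, Cdkn1b and Cdkn1c, act mainly on CDK2 complexes.

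Across the samples the normalized counts summed to between 20241771 and 24423127. Whole-gene levels of Smad2 were 1335, 1132 and 1045 normalized counts in control + vehicle and 924, 863, 892 and 821 in Smad2/3 cKO, which did not overlap (log2 fold change −0.41 ± 0.14 SE, adjusted p = 0.0656 by limma). Smad3 did not differ beyond its spread (−0.07 ± 0.18, adjusted p = 0.827), and whole-gene counts cannot show the loss of single floxed exons. Smad2/3 cKO + A83-01 replicate 2 stood apart from its group, with 1211 normalized counts of Smad2 against 804 to 854 in the other 3 samples, and 797 of Smad3 against 1648 to 1689. Of the SMAD2/3 target genes used as readouts, 3 of the 8 tested fell with A83-01 in control organoids (Fn1, Pmepa1 and Smad7), where 2.27% of all genes passed in either direction, and 3 of 9 in Smad2/3 cKO (Fn1, Pmepa1 and Tgif1), where 7.38% did. For Fn1, the fibronectin gene, the log2 fold changes were −8.49 ± 0.53 and −9.06 ± 0.91 (adjusted p = 0.000106 and 0.000495). Smad7 lost its call without control + vehicle replicate 1 (adjusted p = 0.0108) or 2 (0.0118), and Pmepa1 in Smad2/3 cKO without control + vehicle replicate 1 (0.0220) or 2 (0.0185) or Smad2/3 cKO replicate 1 (0.0106). All 7 epithelial markers were expressed, and Epcam was at 19889 to 28844 normalized counts. Control + vehicle samples summed to between 173068 and 217578 over these markers and control + A83-01 samples to between 121773 and 187724. The sums of Smad2/3 cKO samples lay between 95789 and 153644, those of Smad2/3 cKO + A83-01 samples between 93296 and 134215, so that neither cKO group overlapped control + vehicle. In Smad2/3 cKO 6 of the 7 had negative changes (median −0.52) and 4 did not overlap, against 30.8% of all genes. The changes were led by Krt19 (−1.85 ± 0.39, adjusted p = 0.0118) and Krt8 (−1.50 ± 0.32, adjusted p = 0.0124), and 0 passed. In Smad2/3 cKO + A83-01 against control + vehicle 2 of the 7 passed as lower, against 5.64% of all genes. The part of these markers in the results was not tested. Smad2/3 cKO replicate 2 stood apart by the macrophage genes Lyz2 (3372 normalized counts against at most 86.9 in any other sample) and Adgre1 (351 against at most 9.01). The leukocyte markers did not move as 1 group. Ptprc, the pan-leukocyte CD45 gene, was 12.5 to 38.5 in control + vehicle and 68.5 to 514 in the other samples. Cd68, a macrophage gene, lay between 1180 and 2474 in control + vehicle, between 3024 and 8115 in control + A83-01, between 1726 and 5184 in Smad2/3 cKO and between 3678 and 7407 in the combined group. Lyz2 went the other way in the groups with A83-01, from between 41.2 and 70.8 in control + vehicle to at most 15.1 in control + A83-01 and 8.73 in the combined group.

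RefSeq start sites (build GRCm38.p6) were at hand for 6 of the 10 regulators: Cdkn1a, Cdkn1b, Cdkn2a, Cdkn2b, Cdkn2c and E2f1. The 250 bases before a start site were searched on both strands for the SMAD binding element core GTCTG, its palindrome GTCTAGAC, the E box CACGTG and the E2F sites TTTCCCGC, TTTGGCGC and TTTCGCGC. Cdkn2b and the downstream start site of Cdkn2c are shown because these INK4 genes passed the test in opposite directions in the Smad2/3 cKO + A83-01 organoids, and each window holds 1 SMAD core, in capitals below (CAGAC is GTCTG on the other strand). The Cdkn2b window is chr4:89311033-89311282 and the Cdkn2c window chr4:109665373-109665622, both on the minus strand and printed 5′ to 3′.
Cdkn2b: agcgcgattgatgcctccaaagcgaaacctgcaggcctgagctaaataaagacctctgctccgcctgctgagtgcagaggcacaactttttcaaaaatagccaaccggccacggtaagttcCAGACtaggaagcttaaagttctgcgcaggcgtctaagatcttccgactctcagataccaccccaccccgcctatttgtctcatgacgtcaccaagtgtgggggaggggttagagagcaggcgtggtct
Cdkn2c: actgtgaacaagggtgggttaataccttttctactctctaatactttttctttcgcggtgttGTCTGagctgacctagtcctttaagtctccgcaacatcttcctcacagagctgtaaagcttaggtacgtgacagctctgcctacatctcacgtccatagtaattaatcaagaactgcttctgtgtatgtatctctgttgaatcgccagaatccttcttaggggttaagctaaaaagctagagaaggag
The core begins 129 bases before the Cdkn2b start and 188 bases before the Cdkn2c start. It also lay before both Cdkn1a start sites, at 93 and 135 bases. GTCTG is present in 42.2% of all 32851 windows of this length, and a match is a description of the letters only. The upstream start of Cdkn2a held TTTCCCGC, which 0.895% of windows hold. No listed motif was found in the windows of Cdkn1b, E2f1, the downstream start of Cdkn2a and the upstream start of Cdkn2c. Neither the palindrome nor the E box was in any of the 9 windows. Inside the gene as GENCODE annotates it lie the windows of E2f1, of both Cdkn2c starts and of the downstream Cdkn1a and Cdkn2a starts.

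Loss of Smad2 and Smad3 without inhibitor was accompanied by lower Ccnd2 and Myc and by higher Cdkn2c. Of the 10 regulators, 3 passed the thresholds, while 7.38% of all 13149 genes tested did. Those were 1 higher (4.08% of all genes) and 2 lower (3.3%). To pass, a gene needed an adjusted p under 0.01 by limma and a fold change over 1.4 in either direction. At an adjusted p under 0.05 alone, 4 of the 10 stood out, against 19% of all genes. The median log2 fold change was −0.65 over the 10 regulators and 0.0024 over all genes tested. The groups did not overlap in 5 of the 10, against 30.8% of all genes.

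Ccnd2 encodes cyclin D2 and lies at chr6:127125162-127152193 on the minus strand (ENSMUSG00000000184; gene positions are on GRCm38, while the values were made on GRCm39). It was 2559, 934 and 454 normalized counts in control + vehicle and 27.6, 123, 121 and 35.4 in Smad2/3 cKO. Every cKO sample was below every control sample, although the control samples themselves spread widely. The log2 fold change was −4.03 ± 0.69 (95% interval −5.59 to −2.47, adjusted p = 0.00520), a level 0.0612 times that of control.

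Myc encodes the growth-promoting transcription factor MYC (ENSMUSG00000022346, chr15:61985391-61990374, plus strand). It was 2853, 2676 and 2288 in control + vehicle and 1695, 1325, 1641 and 1314 in Smad2/3 cKO, again without overlap. Its log2 fold change was −0.81 ± 0.15 (95% interval −1.14 to −0.47, adjusted p = 0.00675), or 0.572 times the control level.

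Cdkn2c encodes the INK4 inhibitor p18INK4c (ENSMUSG00000028551, chr4:109660876-109667189, minus strand). Its normalized counts were 119, 128 and 145 in control + vehicle and 298, 295, 229 and 329 in Smad2/3 cKO. The control samples were tightly grouped and all lay below the cKO samples. The log2 fold change was 1.12 ± 0.22 (95% interval 0.62 to 1.62, adjusted p = 0.00887), or 2.18 times the control level.

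Cdkn2b, which encodes p15INK4b, the INK4 inhibitor classically raised by TGF-beta (ENSMUSG00000073802, chr4:89306299-89311039, minus strand), had normalized counts of 1717, 1223 and 832 in control + vehicle and 625, 533, 633 and 414 in Smad2/3 cKO. The groups did not overlap, but the change of −1.15 ± 0.26 did not reach the threshold (adjusted p = 0.0154). Cdkn2a, its neighbour on chromosome 4, encodes both p16INK4a and p19ARF, which gene-level values do not separate. Its normalized counts were 80.2, 32.3 and 16.3 against 0.972, 11.01, 15.3 and 2.47. These groups did not overlap either, at −2.57 ± 0.91 (adjusted p = 0.0798). Smad2/3 cKO replicates 1 and 4 were below 3 normalized counts, where a gene is hardly detected.

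The calls in this comparison were close to the threshold. Among 7 fits that each left out 1 sample, Ccnd2 lost its call in 4, without control + vehicle replicate 1 (adjusted p = 0.0241) or 2 (0.0238) and without Smad2/3 cKO replicate 1 (0.0119) or 4 (0.0152). Myc lost it in 6, without control + vehicle replicate 1 (0.0337), 2 (0.0308) or 3 (0.0107) and Smad2/3 cKO replicate 1 (0.0110), 2 (0.0168) or 4 (0.0221). Cdkn2c lost it in 6 as well, without control + vehicle replicate 1 (0.0360), 2 (0.0339) or 3 (0.0172) and Smad2/3 cKO replicate 1 (0.0258), 2 (0.0235) or 4 (0.0318). Cdkn2b passed without control + vehicle replicate 3 (0.00739). Without Smad2/3 cKO replicate 2, the library with macrophage genes, the log2 fold changes were −4.36 for Ccnd2, −0.75 for Myc and 1.11 for Cdkn2c. Over the 15 alternatives run for each gene the adjusted p ranged from 0.00430 to 0.0450 for Ccnd2, from 0.00463 to 0.0364 for Myc, from 0.00104 to 0.0608 for Cdkn2c and from 0.00739 to 0.0587 for Cdkn2b, with no change of sign.

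**Figure D1:**
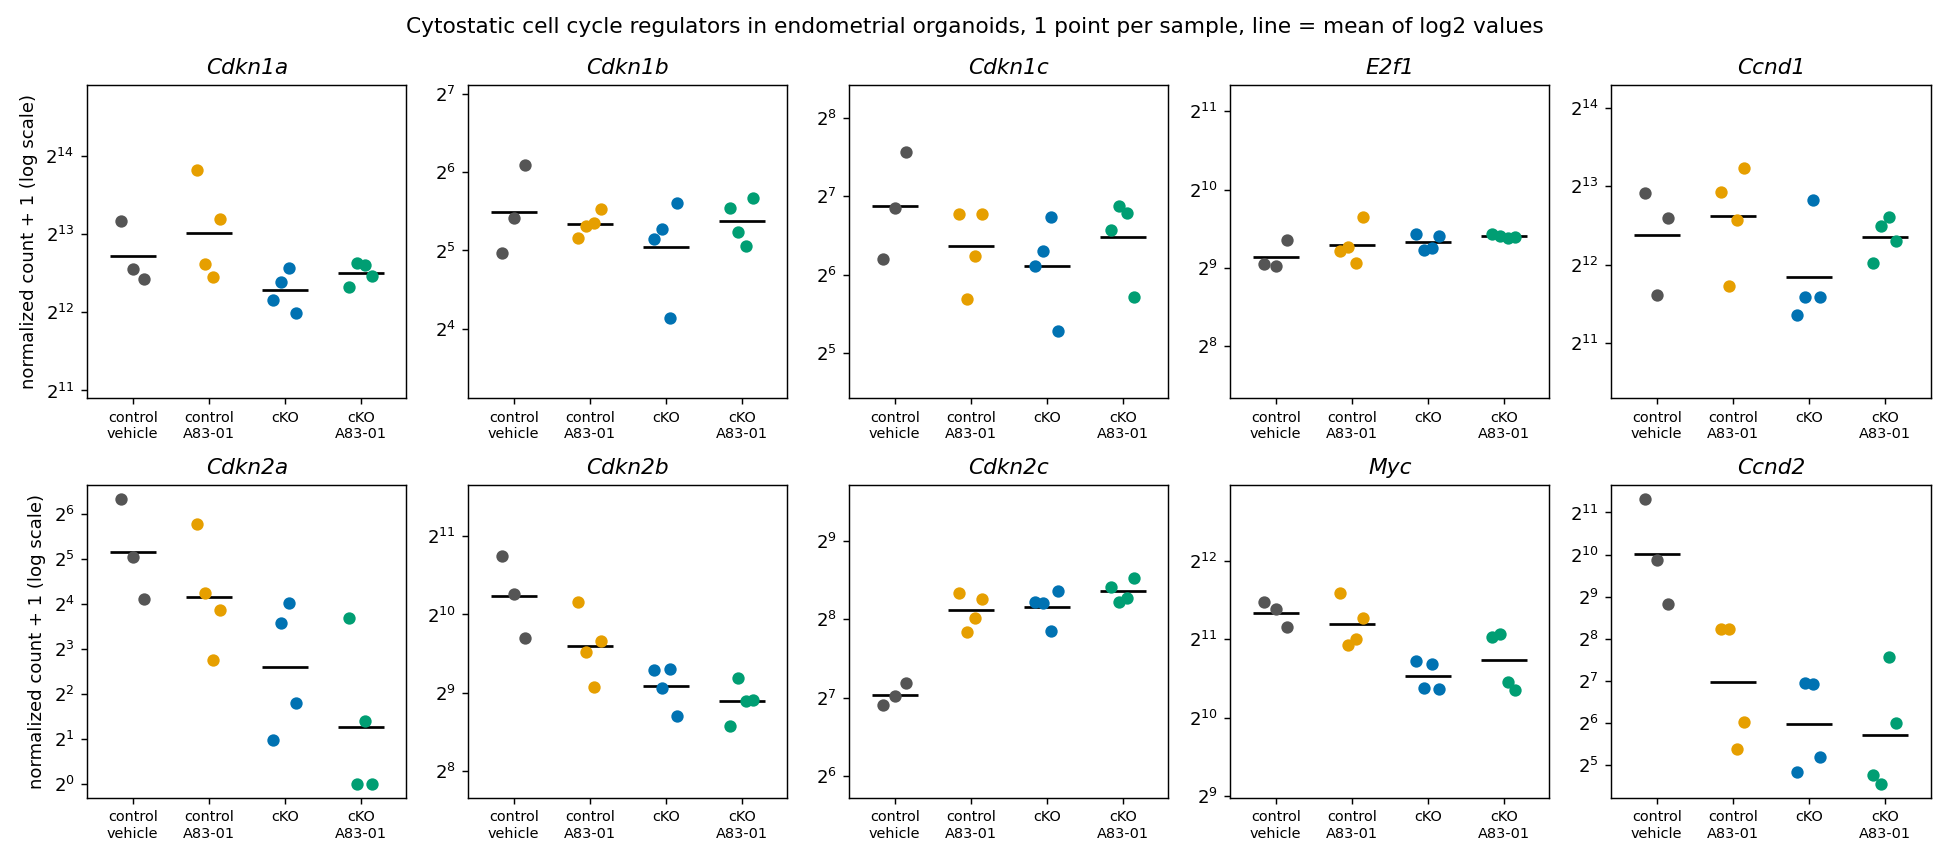
Normalized count plus 1 (log scale) of each of the 10 regulators in every sample, by group, with a line at the mean of the log2 values. Ccnd2 and Cdkn2b step down from control + vehicle, Cdkn2c is at 119 to 145 in control + vehicle and at 228 to 368.2 in the other groups, and Cdkn1b and E2f1 overlap between the 2 vehicle groups.

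Markers of other cell types were examined beside these genes. The summed level of the smooth muscle markers in the file was 219, 144 and 73.9 in control + vehicle, 36.7 to 62.9 in Smad2/3 cKO, 29.9 to 55.1 in control + A83-01 and 30.4 to 86.5 in Smad2/3 cKO + A83-01. Of these 4 markers 2 could be tested and 1 passed, Acta2, which encodes smooth muscle actin and fell in Smad2/3 cKO (log2 fold change −3.12 ± 0.60, adjusted p = 0.00841). The other tested marker had a positive change, and Acta2 made up most of the sum in control + vehicle (176, 101 and 53.6). Within control + vehicle the order of the 3 samples in this sum was the order of their Ccnd2, Cdkn2b and Cdkn2a levels. Cdkn1a, Myc and Smad2 had the same order, and Cdkn1b, Cdkn1c and Cdkn2c the reverse. The share of all genes with this order was not computed. The sum of the 7 stromal fibroblast markers lay between 32.6 and 194 in control + vehicle, between 4.79 and 54.7 in control + A83-01, between 2.96 and 43.9 in Smad2/3 cKO and between 3.99 and 129 with genotype and inhibitor combined. The stromal sum thus overlapped control + vehicle in each of the other groups. The part of these cells in the results was not tested, and in bulk RNA fewer cells of a type and less RNA per cell cannot be told apart.

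**Figure D2:**
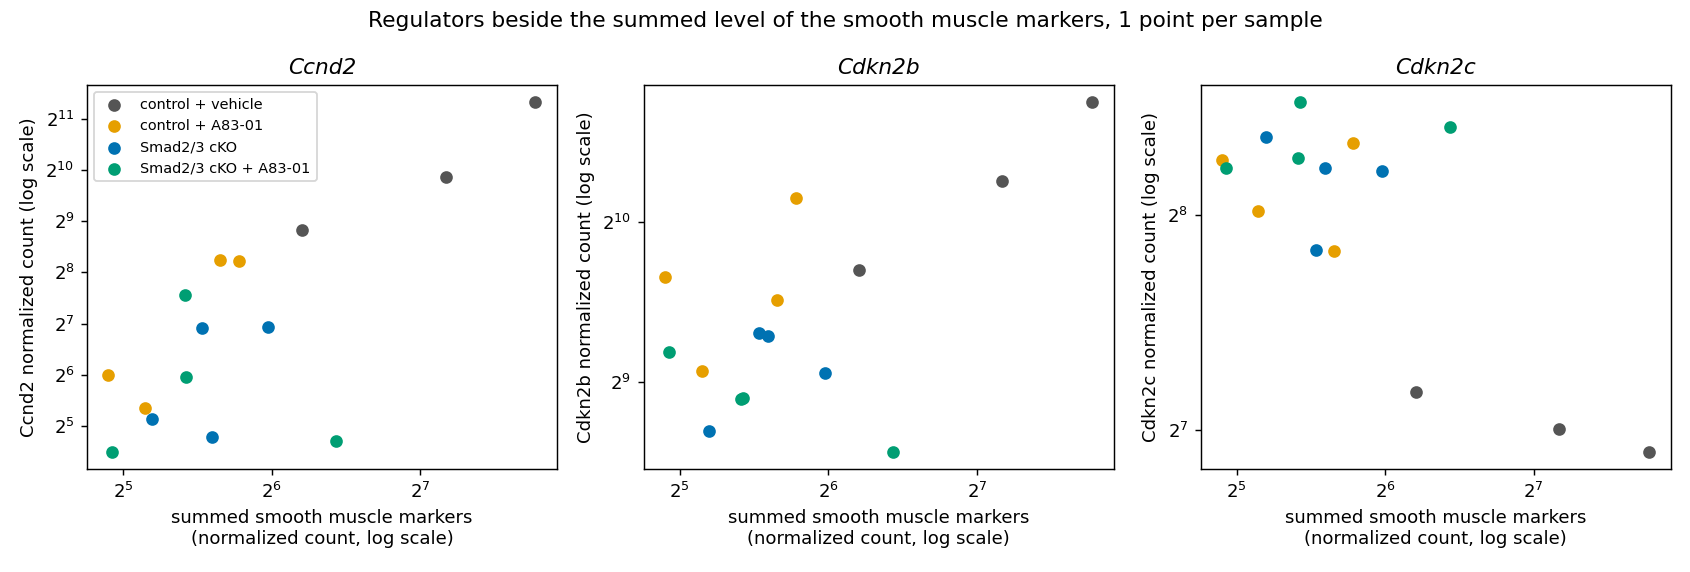
Normalized counts of Ccnd2, Cdkn2b and Cdkn2c against the summed smooth muscle markers, 1 point per sample, both axes on a log scale. Acta2 makes up most of the sum in control + vehicle. The 2 control + vehicle samples with the highest sums (144 and 219) have the highest Ccnd2 and Cdkn2b levels, and all 3 control + vehicle samples have the lowest Cdkn2c levels.

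The remaining regulators did not pass the thresholds. Cdkn1a, which encodes p21, a target of both SMADs and p53, was 9204, 6017 and 5507 normalized counts in control + vehicle and 4580, 5371, 6067 and 4075 in Smad2/3 cKO. The groups overlapped and the change was −0.44 ± 0.21 (95% interval −0.91 to 0.03, adjusted p = 0.174). Cdkn1b (p27) was low, between 16.6 and 67.2 in all samples, and its change was −0.45 ± 0.49 (adjusted p = 0.560). Cdkn1c (p57) was between 37.8 and 188 and its change was −0.77 ± 0.45 (adjusted p = 0.264). Neither CIP/KIP gene separated the genotypes. Ccnd1, the cyclin D1 gene, was 7714, 3138 and 6167 against 2613, 3076, 7266 and 3089, and its change of −0.53 ± 0.39 had an adjusted p of 0.377. E2f1, which encodes an activator of S-phase genes, was nearly level (0.19 ± 0.15, 95% interval −0.16 to 0.54, adjusted p = 0.427).

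The comparison of control + A83-01 with control + vehicle asked what blocking the receptors does in control organoids. None of the 10 regulators passed the limma thresholds, against 2.27% of the 13009 genes tested, and 2 of the 10 had an unadjusted p below 0.05. At an adjusted p under 0.05 alone there was 1, Cdkn2c, against 7.34% of all genes. Ccnd2 and Cdkn2c were the 2 regulators whose groups did not overlap, as in 21.7% of all genes. Ccnd2 was 300.4, 302, 40.7 and 63.7 in control + A83-01, all below the control + vehicle samples, at a log2 fold change of −3.04 ± 0.82 (95% interval −4.89 to −1.18, adjusted p = 0.0584). Cdkn2c was 323, 228, 259 and 306, all above them, at 1.08 ± 0.24 (95% interval 0.53 to 1.62, adjusted p = 0.0304). This comparison and that of Smad2/3 cKO with control share the control + vehicle samples.

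Control + A83-01 replicates 1 to 3 and control + vehicle replicates 1 to 3 carry the same numbers in the labels. Deviations of same-numbered samples from their group means correlated at 0.354 to 0.423. Control + A83-01 replicate 4 and control + vehicle replicate 3, whose numbers differ, correlated at 0.347. With the replicate number as a block, Ccnd2 passed the thresholds (log2 fold change −2.72, adjusted p = 0.00651), while Cdkn2c had an adjusted p of 0.0517 and Cdkn2b 0.0360. Over all 15 alternatives the adjusted p ranged from 0.00651 to 0.200 for Ccnd2 and from 0.00220 to 0.117 for Cdkn2c. Cdkn2c passed with all 4 groups in the fit.

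Cdkn2b was 1138, 731, 538 and 806 in control + A83-01, which overlapped control + vehicle, and its change was −0.64 ± 0.31 (adjusted p = 0.267). Myc was 3094, 1948, 2053 and 2482, and its change of −0.14 ± 0.19 had a 95% interval from −0.58 to 0.29 (adjusted p = 0.733). Myc thus fell in Smad2/3 cKO by the test and did not differ beyond its spread with A83-01 in control organoids. Between Smad2/3 cKO and control + A83-01 the Myc samples did not overlap (3.45% of genes did not), with a log2 fold change of −0.67 ± 0.18, but the adjusted p was 0.596 and no gene of 12980 passed, 826 having an unadjusted p below 0.05. Cdkn1a reached 14401 in control + A83-01 replicate 1 and was 5615 to 9331 in the other 3 samples (0.30 ± 0.33, adjusted p = 0.663). Ccnd1 (0.24 ± 0.40), E2f1 (0.16 ± 0.20), Cdkn1b (−0.15 ± 0.41), Cdkn1c (−0.50 ± 0.43) and Cdkn2a (−1.005 ± 0.80) had adjusted p-values from 0.526 to 0.874.

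**Figure D3:**
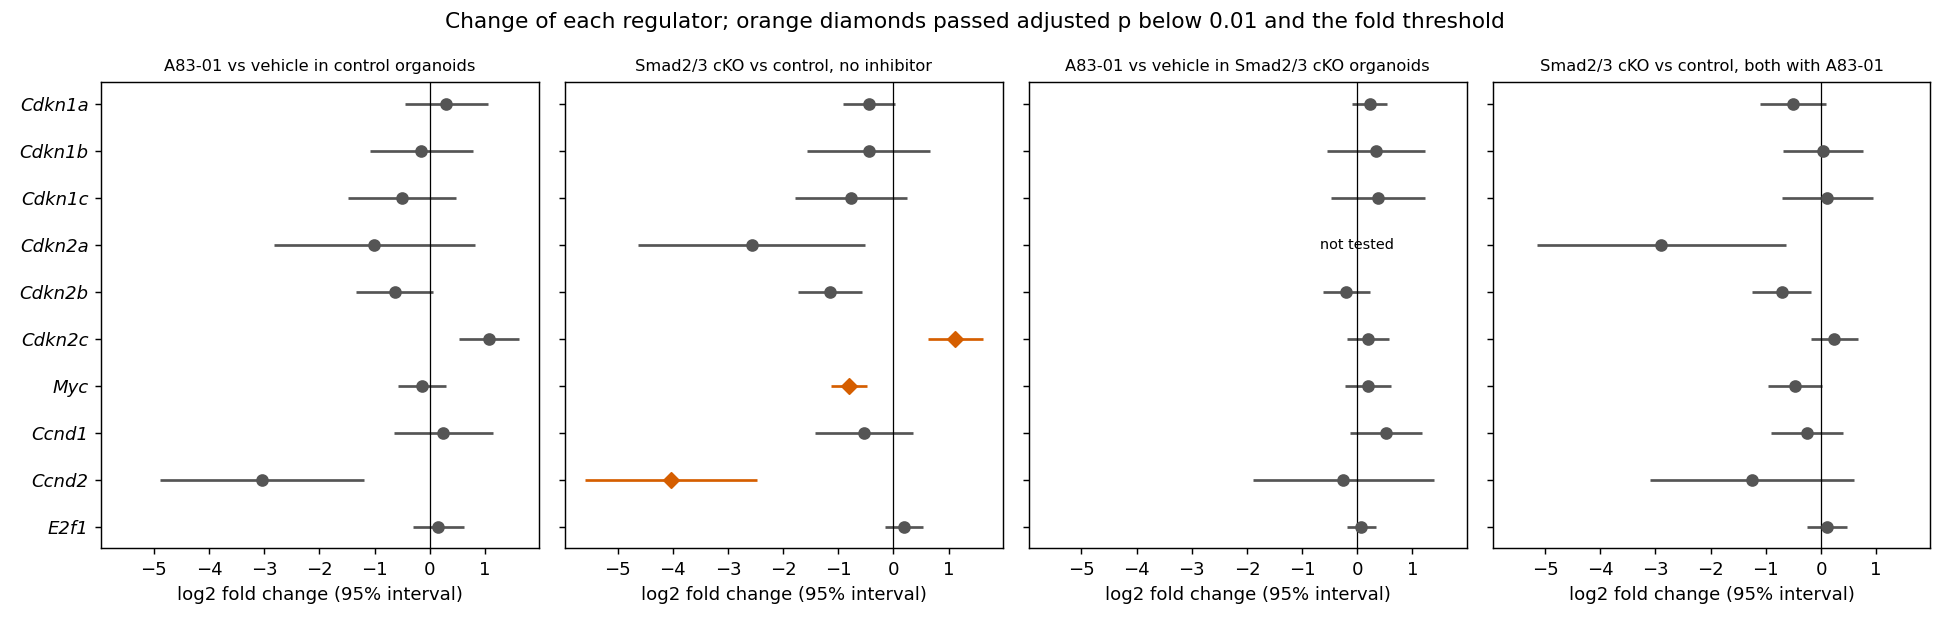
Log2 fold change of each regulator with its 95% interval in the 4 comparisons of 2 groups, on a common axis. Orange diamonds mark the 3 changes that passed the thresholds, all of them in Smad2/3 cKO against control without inhibitor, and the points of the third comparison lie near 0.

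In Smad2/3 cKO organoids, A83-01 was not accompanied by a detectable change of any regulator. Cdkn2a was below the filter there and was not tested. Of the other 9, 0 passed and 0 had an unadjusted p below 0.05, and all genes gave the same count of calls (0% of 12998 by limma, 554 with an unadjusted p below 0.05). The groups overlapped for all 9 (2.9% of all genes did not overlap). Ccnd2 was 26.0, 22.6, 189 and 62.6 in Smad2/3 cKO + A83-01, a log2 fold change of −0.26 ± 0.74 from Smad2/3 cKO. Its 95% interval ran from −1.90 to 1.38. Cdkn2c was 340, 298, 308 and 368.2, at 0.20 ± 0.17 (95% interval −0.19 to 0.58). Myc was 2096, 2153, 1407 and 1309 (0.19 ± 0.19, interval −0.23 to 0.62), and Cdkn2b was 379, 584, 476 and 478 (−0.20 ± 0.19, interval −0.62 to 0.23).

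With A83-01 in both genotypes, 0 of the 10 regulators passed the limma thresholds, 3 of 12915 genes did (0.0232%), and 2 regulators had an unadjusted p below 0.05, namely Cdkn2b (log2 fold change −0.71 ± 0.24, adjusted p = 0.373) and Cdkn2a (−2.89 ± 1.01, adjusted p = 0.383). No regulator's groups were without overlap (6.12% of all genes). Ccnd2 differed by −1.25 ± 0.83 (adjusted p = 0.708) and Cdkn2c by 0.24 ± 0.19 (adjusted p = 0.765). The genotype by A83-01 interaction asks whether A83-01 acted differently in the 2 genotypes. It passed for 0.551% of 13066 genes and for 0 regulators, with unadjusted p below 0.05 for 2. Those were Cdkn2c (−0.88 ± 0.26, adjusted p = 0.117) and Ccnd2 (2.78 ± 1.21, adjusted p = 0.303).

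Genotype and inhibitor combined were also set against control + vehicle. Here 3 of 10 regulators passed (11.7% of 13097 genes), 1 higher (6.1%) and 2 lower (5.64%), and 6 were without overlap (33% of all genes). Ccnd2 fell by 4.29 ± 0.77 (adjusted p = 0.00375), Cdkn2b fell by 1.34 ± 0.25 (adjusted p = 0.00472) and Cdkn2c rose by 1.321 ± 0.21 (adjusted p = 0.00208), all on the log2 scale. The other 3 without overlap were Myc (−0.61 ± 0.21, adjusted p = 0.0597), Cdkn2a (−3.90 ± 1.03, adjusted p = 0.0238) and E2f1 (0.26 ± 0.16, adjusted p = 0.264). Cdkn2a was listed at 0 in Smad2/3 cKO + A83-01 replicates 2 and 4 and at 11.9 and 1.63 in replicates 1 and 3. Leaving out Smad2/3 cKO + A83-01 replicate 2, in which Smad2 stood apart, kept the 3 calls, with log2 fold changes of −3.90 for Ccnd2 (adjusted p = 0.00734), −1.45 for Cdkn2b (0.00509) and 1.37 for Cdkn2c (0.00343). Leaving out other samples ended calls. Ccnd2 was lost without control + vehicle replicate 1 (0.0185) or 2 (0.0170) and Smad2/3 cKO + A83-01 replicate 1 (0.0102) or 4 (0.0108). Cdkn2b was lost without control + vehicle replicate 1 (0.0198) or 2 (0.0226) and Smad2/3 cKO + A83-01 replicate 1 (0.0123), 3 (0.0129) or 4 (0.0149). Cdkn2c was lost without control + vehicle replicate 1 (0.0104) or 2 (0.0106) and Smad2/3 cKO + A83-01 replicate 4 (0.0101), and Cdkn2a passed without Smad2/3 cKO + A83-01 replicate 1 (0.00797). Over all alternatives the adjusted p ranged from 0.00132 to 0.0222 for Ccnd2, from 0.00207 to 0.0315 for Cdkn2b, from 0.000185 to 0.0374 for Cdkn2c and from 0.00797 to 0.105 for Cdkn2a.

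The order of the 4 group means was the same for Ccnd2, Cdkn2a and Cdkn2b: control + vehicle highest, then control + A83-01, Smad2/3 cKO and Smad2/3 cKO + A83-01. Ccnd2 means were 1316 ± 1103 (SD, n = 3), 177 ± 144, 76.6 ± 52.2 and 74.95 ± 77.9 (n = 4 each), and Cdkn2b means were 1257 ± 443, 803 ± 250, 551 ± 102 and 479 ± 83.5. Cdkn2c had the reverse order, at 131 ± 12.8, 279 ± 43.3, 288 ± 42.1 and 328 ± 32.0, as did E2f1, whose range of means was narrow, 567 to 677. Of 30 pairs of neighbours in these orders over the 10 regulators, 29 could be tested and 0 passed by limma, with 2 pairs without overlap. These were control + vehicle and control + A83-01 for Ccnd2 and for Cdkn2c, a comparison in which 21.7% of all genes did not overlap. The Cdkn2c pair was the 1 pair with an adjusted p below 0.05 (0.0304). Per kilobase of exon, Cdkn1a (1414 to 2506 normalized counts per kilobase over the group means) and Ccnd1 (852 to 1431) were the highest of the 10 in all groups. Cdkn2b was 905 per kilobase in control + vehicle and 397 in Smad2/3 cKO, and Cdkn2c 48.7 and 107, with Cdkn2b the higher of the 2 genes in both groups. Ccnd2 was 140 per kilobase in control + vehicle and 8.14 in Smad2/3 cKO, and Ccnd1 stayed above it by these means in every group.

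Over the 15 samples, log2 levels of Cdkn2b followed those of Ccnd2 (Pearson r = 0.825) and of Myc (0.782), and Cdkn2a followed Ccnd2 (0.741), while Cdkn2c ran opposite to Ccnd2 (−0.816) and Cdkn2b (−0.754). Cdkn1a followed Myc (0.703) and Ccnd1 (0.698). These values are descriptions, since the samples form groups and share their normalization. Among 13066 genes, those most like Cdkn2c were Msra (0.979), Fam174b (0.975) and Kyat1 (0.973), those most like Ccnd2 were Leprot (0.965), Efna4 (0.950) and Traf3ip2 (0.944), and those most like Myc were Mtap (0.900), Tpm3 (0.889) and Omp (0.885).

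The other genes of the cell cycle machinery are read against the 2.27% of all genes that passed with A83-01 in control organoids and the 7.38% in Smad2/3 cKO. Of the 14 E2F target genes of S phase, 1 rose in each of the first 2 comparisons, Rrm2, which encodes the small subunit of ribonucleotide reductase. It was 2799, 3009 and 3895 normalized counts in control + vehicle, 8056 to 15224 in control + A83-01 and 9976 to 16367 in Smad2/3 cKO. Its log2 fold changes were 1.83 ± 0.24 with A83-01 in control organoids (adjusted p = 0.00348) and 1.96 ± 0.21 in Smad2/3 cKO (adjusted p = 0.000726). The A83-01 call was lost without control + vehicle replicate 1 (adjusted p = 0.0231) or 2 (0.0233) and without control + A83-01 replicate 4 (0.0133), and the cKO call held without each sample. The median over the 14 genes was 0.10 and −0.11, and none of the MCM helicase genes among them passed. Of the 12 mitosis genes, 0 passed in either comparison, although 11 had positive changes in each, with medians of 0.33 and 0.29.

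A list of 4 cyclin D and CDK4/6 genes held the D-type cyclin Ccnd3, the kinases Cdk4 and Cdk6 and the INK4 gene Cdkn2d. Of these, Cdk4, a kinase that cyclin D activates, fell in Smad2/3 cKO (−0.69 ± 0.12, adjusted p = 0.00494). Cdk4 was 8315, 7643 and 7577 in control + vehicle and 4569 to 5196 in Smad2/3 cKO, without overlap. Of the 12 pocket protein, E2F and DP genes, E2f5, which encodes an E2F that works with pocket proteins in repression, rose there (1.02 ± 0.18, adjusted p = 0.00605). Cdk4 was −0.43 ± 0.21 and E2f5 0.94 ± 0.20 with A83-01 in control organoids (adjusted p = 0.286 and 0.0258). In Smad2/3 cKO, Cdk4 was lost without control + vehicle replicate 1 (0.0241), 2 (0.0185) or 3 (0.0133) and Smad2/3 cKO replicate 1 (0.0151) or 4 (0.0180). E2f5 was lost without control + vehicle replicate 1 (0.0291), 2 (0.0218) or 3 (0.0135) and Smad2/3 cKO replicate 1 (0.0173), 2 (0.0108) or 4 (0.0160). None of the 5 cyclin E, cyclin A and CDK2 genes, 10 MYC network genes, 6 p27 and MYC turnover genes, 12 MYC target genes, 12 p53 target genes and 10 other anti-proliferative genes tested passed in either comparison. The medians over the MYC target genes were 0.01 with A83-01 in control organoids and −0.02 in Smad2/3 cKO, where Myc itself fell. In the 2 comparisons within cKO or with A83-01 in both genotypes, 0 genes of these lists passed. In Smad2/3 cKO + A83-01 against control + vehicle 11.7% of all genes passed. Higher there were 1 of the 4 cyclin D and CDK4/6 genes and 1 of 12 pocket protein, E2F and DP genes, with 1 of these 12 lower. The E2F target genes (1 of 14), p53 target genes (1 of 12) and other anti-proliferative genes (2 of 10) also had higher ones. In the MYC network 1 of 10 was lower, and the remaining lists of cell cycle genes had 0 calls. Of the 9 SMAD2/3 target genes used as readouts, 7 were lower there (5.64% of all genes) and 1 was higher (6.1%).

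**Figure D4:**
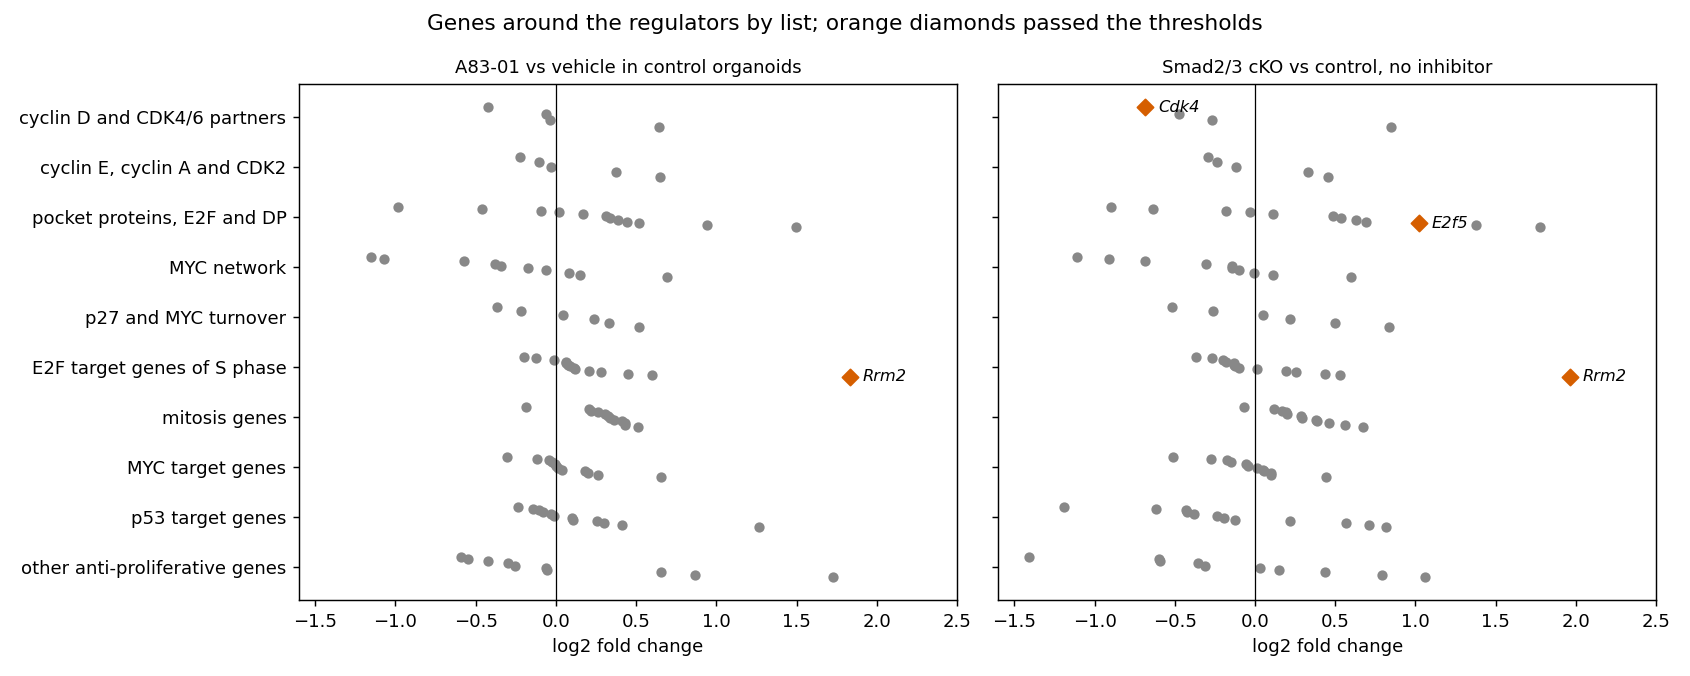
Log2 fold changes of the genes around the regulators, 1 point per gene by list, for A83-01 in control organoids (left) and Smad2/3 cKO against control (right). Orange diamonds passed the thresholds, namely Rrm2 on both sides and Cdk4 and E2f5 on the right, and the MYC target genes lie around 0.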

How the data were processed

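RNA from endometrial organoids, of different mice within a group, was made into libraries with the SMART Seq v4 kit, and 15 samples were used. Per the labels, the authors ran Salmon 1.4.0 on GRCm39 and DESeq2 1.32.0. The deposited signal per gene is an estimated count normalized between samples, called the normalized count here. The median ratio of these values to the geometric mean over samples was equal in all samples. Low values were whole multiples of 1 step in 10.7% to 22.6% of cases (tolerance 0.02), so reads were not recovered and no count model was run. The exact read number of each sample is therefore unknown, and the study's methods give only an approximate depth per sample. Of 16729 genes, 16697 had a symbol, and 17 symbols were shared. Positions and exon lengths are those of GENCODE M21 on GRCm38.

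limma 3.58.1 (lmFit, eBayes with trend, R 4.3.3) was run on log2(normalized count + 1) for genes averaging 10 or more in the groups compared, with Benjamini-Hochberg adjustment over every gene tested. Fold changes on this scale understate changes of low genes. The interaction used 1 contrast over 15 samples, and its main fit had no term for shared sample numbers. The fits were tested on simulated data. The members and lists were chosen with earlier results of these data known. Named are the 10 regulators, Smad2, Smad3, up to 5 genes past the thresholds per list and the 3 genes most correlated with each called regulator. Marker genes were named after their values were seen.

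Pairing was checked by correlating deviations from group means between samples with the same replicate number in the titles. The correlation was 0.354 to 0.423 for the 3 pairs of control + A83-01 and control + vehicle, which also carry the same sample numbers in their descriptions. Other combinations averaged −0.133, but control + A83-01 replicate 4 and control + vehicle replicate 3 reached 0.347 with different sample numbers. Deviations from a group mean cancel within the group, so that average is not independent of the same-numbered pairs. The block is given beside that comparison. P-values measure the spread between these samples. The alternatives were other pseudocounts (0.1, 10), other minimum means (0, 50), quantile normalization, the replicate block, a fit over every group, a looser adjusted p (0.05) and each sample left out.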

Additional observations from a re-analysis of the deposited data

Results flagged for a closer look

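In 4 of 36 combinations of gene and group, the highest or lowest of 4 samples lay farther from the rest than Dixon's 95% critical value allows, which chance gives in about 1 in 20. Ccnd1 was 7266 normalized counts in Smad2/3 cKO replicate 3 against 2613 to 3089 in the other samples of the group. Cdkn2a was 11.9 in Smad2/3 cKO + A83-01 replicate 1 against 0 to 1.63. Smad2/3 cKO + A83-01 replicate 2 had Smad2 at 1211 against 804 to 854 and Smad3 at 797 against 1648 to 1689.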

How the results depend on the processing

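Genes past the thresholds with A83-01 in control organoids numbered 295, and 146 with no filter, 655 with every group in the fit, 955 at an adjusted p under 0.05 with the fold cutoff kept, as below, and 49 to 312 with 1 sample left out. Of the regulators, 0 passed, and 1 with the replicate block (Ccnd2), with every group in the fit or at an adjusted p under 0.05 (Cdkn2c both times). For Smad2/3 cKO against control, 970 genes passed, 2410 at an adjusted p under 0.05 and 280 to 992 with 1 sample left out. Its 3 regulators became 0 with no filter (adjusted p = 0.0101 for Ccnd2 and Myc, 0.0125 for Cdkn2c) and ranged from 0 to 3 with 1 sample left out. With the replicate block, 211 genes (145 higher and 66 lower, against 536 and 434) and 0 regulators passed. That block joins samples by replicate number alone, and their deviations correlated at 0.0153 to 0.0774. Among these pairs the replicates numbered 1 also share a sample number (0.0774). Smad2/3 cKO replicate 2 and Smad2/3 cKO + A83-01 replicate 1 share a sample number too and correlated at 0.355, which the block does not use. Pairs of these groups with different sample numbers ranged from −0.348 to 0.394. The highest was Smad2/3 cKO replicate 1 with Smad2/3 cKO + A83-01 replicate 2, so the shared number is not singled out. With A83-01 in both genotypes 3 genes passed, 0 with no filter or the block, 5 with every group in the fit and 0 to 4 with 1 sample left out. The interaction passed for 72 genes, 208 at an adjusted p under 0.05 and 39 to 77 with 1 sample left out. The causes were not tested.

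Changes of sign were seen in values that did not pass. Quantile normalization gave 0.071 for Cdkn1b with A83-01 in control organoids and −0.035 with A83-01 in both genotypes, and a pseudocount of 10 gave 0.32 for Cdkn2a in the interaction. With 1 sample left out, the A83-01 change in control organoids ranged from −0.42 to 0.15 for Cdkn1b and −0.13 to 0.54 for Ccnd1. Smad3 ranged from −0.18 to 0.068 in Smad2/3 cKO, and Ccnd2 from −0.87 to 0.13 with A83-01 in cKO. With A83-01 in both genotypes the ranges were −0.060 to 0.15 for Cdkn1b, −0.11 to 0.37 for Cdkn1c and −0.19 to 0.39 for Smad3. In the interaction they were −0.30 to 0.19 for Cdkn1a, −1.13 to 0.22 for Cdkn2a, −0.021 to 0.65 for Ccnd1 and −0.19 to 0.033 for E2f1. Cdkn1b and Cdkn2a were below 100 normalized counts in every sample, and their counting error is unknown without the exact read numbers.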
